A study of Mus musculus with 4 samples.

Results

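The S100 family consists of small calcium-binding proteins, and 8 of its genes, S100a1, S100a3, S100a4, S100a6, S100a10, S100a11, S100a13 and S100a16, are described here in mouse embryonic stem (ES) cells. They are 8 of the 27542 rows in a table of gene levels, of which 15477 were tested by the authors. The genes were chosen by symbol with the KD and control FPKM of this same comparison known, so their levels and differences below are a description and carry no test of their own. For each symbol the row with the highest mean level was taken, and each symbol had only 1 row. The study measured RNA by sequencing in TBV2 cells, a mouse ES cell line grown in serum with LIF, a cytokine that holds ES cells undifferentiated. The control (NT) was 1 library, and the knockdown (KD) was 3 clones labelled T-UCstem1 KD, and uc.170 in their titles, after a noncoding RNA with an ultraconserved element. Both groups were also described as kept on feeder cells at high density. The knockdown construct is not given in the sources used here, and the level of T-UCstem1 was not analysed here.

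S100 proteins carry a pair of EF-hands, the helix-loop-helix folds that bind calcium, and most work as dimers. Calcium binding opens a surface through which the dimer grips a partner such as an annexin, a myosin or a p53 protein, and some members are also released and act outside the cell. Most S100 genes lie side by side in one conserved chromosome region and are expressed in different tissues, with several known from fibroblasts, epithelia and motile cells.

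The authors gave 1 level per gene for the control and 1 for the pooled clones, in FPKM (fragments scaled to transcript length and to the number mapped), so no value has an SD or a replicate check. Their p and q come from Cuffdiff, a test for differences in FPKM, and the control side of that test rests on 1 library. Differences are given as log2((KD FPKM + 1)/(NT FPKM + 1)), called the log2 difference, which is positive where the KD was higher and understates change at low levels. The median log2 difference over all tested rows was 0.0069. Where 2 levels stand together, the first is NT and the second the KD. The labelled cell type was checked on 10 ES cell markers, which were all abundant in both groups, with Pou5f1, which encodes OCT4, at 1036 FPKM in NT and 1078 FPKM in KD cells. The most abundant marker row, that of Dppa5a with Ooep, stood at 2552 and 2721 FPKM, and the row of Tdgf1, a Nodal co-receptor, at 706 and 686 FPKM. In total RNA from a whole culture, fewer cells of a type and less RNA per cell cannot be told apart.

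S100a4 and S100a6 were higher in the KD by the authors' test, S100a10, S100a11, S100a13 and S100a16 stood higher without passing it, and the row that holds S100a1 stood slightly lower without passing. Of the 7 tested members in the authors' deposited table, 2 were marked as higher and none as lower, where 0.963% of all tested rows were marked higher and 0.187% lower. Of the same 7 members, 6 lay above 0, against 50.9% of all tested rows. The number at least 2-fold higher was 2, against 2.72% of tested rows, and 2 had an unadjusted p of 0.05 or less on the higher side, against 6.1%. The comparison is the one on which the genes were chosen, so nothing is read from these shares. The median log2 difference was 0.67 over all 8 rows and 0.72 over the 7 tested rows.

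**Figure D1:**
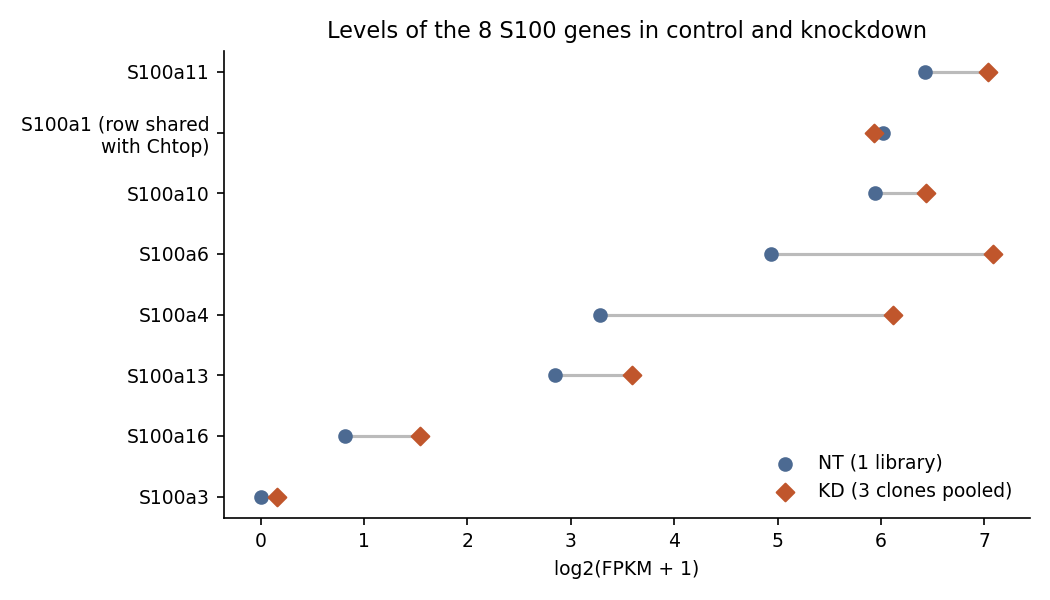
Levels of the 8 S100 genes as log2(FPKM + 1), with a circle for the control library and a diamond for the pooled KD clones, ordered by the control level. The lines of S100a4 (8.70 to 68.6 FPKM) and S100a6 (29.7 to 135 FPKM) are the longest, and the S100a1 row is shared with Chtop.

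S100a4, known as fibroblast-specific protein and metastasin, binds nonmuscle myosin and is a marker of motile cells. Its level was 8.70 FPKM in NT and 68.6 FPKM in KD cells, which is 7.88 times the control level. The log2 difference of 2.84 ranked 28 among the 15477 tested rows, and the authors' deposited table gives a q of 0.00815. In the control S100a4 stood close to the middle of all tested rows, at percentile 53.9 of their levels.

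S100a6, or calcyclin, binds annexins and the calcyclin-binding protein Cacybp and is common in fibroblasts and epithelia. It rose from 29.7 FPKM in NT to 135 FPKM in KD cells, 4.53 times the control level, with a log2 difference of 2.14 at rank 74. Its q of 0.00815 in the authors' deposited table equals that of S100a4, because both genes have the smallest p in that table, 5e-05, which 95 tested rows share. The deposited row of S100a6 spans 39.1 kb, much longer than the 2.28 kb of the S100a4 row, so it may hold reads of transcripts beyond the usual S100a6 messenger.

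S100a4 and S100a6 lie on the same strand of chromosome 3, with their deposited positions on mouse build mm9 at 90407691 to 90409967 and 90416743 to 90455794, 6.78 kb apart. S100a5, an S100 gene known from olfactory neurons, lies between them and was listed at 0 in both groups. Directly before S100a4, at 90404136 to 90406624, is S100a3, a zinc-binding S100 of the hair cuticle, which was listed at 0 in NT, against 0.113 FPKM in KD cells, and was not tested. S100a4 is thus flanked on both sides by a gene at or near 0.

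The sequences before the starts of the 2 genes marked higher are shown with that of S100a11, the most abundant member in the control. S100a11 also stood higher in the KD without passing. These 3 were picked because they differ in the motifs found, so their contrast is an illustration only. They are from RefSeq on build GRCm38.p6, on the plus strand, at chr3:90603520-90603769, chr3:90612644-90612881 and chr3:93520246-93520487, and end just before the first annotated transcript start. Capitals mark matches on either strand to TATAAA (the TATA box), GGGCGG (a GC box bound by Sp1), TGACTCA (the AP-1 site), CATTCC (the TEAD site) and CACGTG (an E-box), and no 2 matches overlap.
S100a4: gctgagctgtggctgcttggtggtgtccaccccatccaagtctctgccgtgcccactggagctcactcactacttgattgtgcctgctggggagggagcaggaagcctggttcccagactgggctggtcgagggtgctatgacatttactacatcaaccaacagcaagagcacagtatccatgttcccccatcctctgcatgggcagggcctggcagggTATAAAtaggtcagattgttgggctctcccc
S100a6: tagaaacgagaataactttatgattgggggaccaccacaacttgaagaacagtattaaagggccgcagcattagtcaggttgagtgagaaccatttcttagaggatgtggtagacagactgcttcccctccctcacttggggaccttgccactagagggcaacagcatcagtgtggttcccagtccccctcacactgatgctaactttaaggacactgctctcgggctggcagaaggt
S100a11: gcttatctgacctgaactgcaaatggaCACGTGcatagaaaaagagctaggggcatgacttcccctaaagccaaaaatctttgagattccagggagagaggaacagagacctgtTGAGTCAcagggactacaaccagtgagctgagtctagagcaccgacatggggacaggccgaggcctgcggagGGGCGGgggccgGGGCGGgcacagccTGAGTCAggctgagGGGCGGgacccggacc
The S100a4 sequence holds 1 TATAAA that begins 31 bases before the gene's start, a match found in 12.4% of 32851 RefSeq windows of 250 bases. The S100a6 sequence holds none of the 5 motifs. The S100a11 sequence holds 3 GC boxes, 2 AP-1 sites and 1 E-box. At least 1 GC box occurs in 32.7% of all windows, at least 1 AP-1 site in 4.46% and at least 1 E-box in 6.02%. Windows with several matches to a motif were not counted. CATTCC, in 12.6% of all windows, was found in none of the 3 sequences. The 2 members that rose therefore shared no match to these motifs in this window. RefSeq windows were matched for 7 of the 8 members, and none for S100a10.

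S100a10 and S100a11 form a second block on the same chromosome, 2.87 Mb from S100a6, and both are annexin partners. S100a11, or calgizzarin, which binds annexin A1, was at 85.0 FPKM in NT and 130 FPKM in KD cells (93324417 to 93330210). Its log2 difference was 0.61 and it was not called, with q = 0.664 by the authors' deposited table. S100a10, or p11, an S100 protein that has lost calcium binding and pairs with annexin A2 at the plasma membrane, was at 60.3 and 85.8 FPKM (93359038 to 93368567). Its log2 difference of 0.50 was not called either, at q = 0.806 by the authors' deposited table. Both differences stood above those of most tested rows, at percentiles 92.9 and 90.1, and both are small beside those of S100a4 and S100a6.

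S100a13, which helps to release FGF1 and interleukin 1 alpha from cells without a signal peptide, was at 6.21 FPKM in NT and 11.1 FPKM in KD cells. The log2 difference was 0.74, with a p of 0.607 and q = 0.999 by the authors' deposited table. Although this difference was larger than those of S100a10 and S100a11, its p was the higher one, and its row shares a deposited locus (90302879 to 90328503) with Chtop and S100a1. S100a16, a broadly expressed member, was low, at 0.762 FPKM in NT and 1.91 FPKM in KD cells (90341143 to 90347073). Its levels had a ratio of 2.51, which the added 1 FPKM shrank to a log2 difference of 0.72, and its q was 0.741 in the authors' deposited table.

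S100a1, the S100 protein of heart and skeletal muscle, has no level of its own in the table. Its row also holds Chtop, a gene for a chromatin and RNA export factor, and stood at 64.0 FPKM in NT and 59.9 FPKM in KD cells. The log2 difference was -0.093 with q = 0.999 by the authors' deposited table, and the share of S100a1 in it cannot be separated. In RefSeq on GRCm38.p6 the starts of S100a1 and S100a13 lie 105 bases apart on opposite strands, so the 2 genes are transcribed away from each other. A use of strand in the counting is not stated, so reads in this locus may have been shared between the rows.

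Read totals are not stated for any library. In 210 genes with 1 long transcript, the most frequent low product of control FPKM and length in kb was 0.033. If that product is the worth of 1 fragment, the control level of S100a4 on its 498-base transcript would come from about 131 fragments, and that of S100a16 from about 26 (1123 bases). On the same basis 3 fragments on the 712-base transcript of S100a3 would give 0.139 FPKM, above its KD level of 0.113 FPKM. That figure comes from the control library, and no such estimate was made for the pooled KD value. These figures cover counting error only and ignore the shorter effective length of small transcripts.

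The shares of single members in their summed FPKM also differed between the 2 groups. Over the 7 members with a row of their own, FPKM summed to 191 in the control and 433 in the KD. Other S100 genes are not in these sums. S100a11 was the most abundant in the control, at 44.6% of the sum, followed by S100a10 at 31.6%, S100a6 at 15.6% and S100a4 at 4.56%. In the KD S100a6 came first at 31.2%, ahead of S100a11 at 30.1%, S100a10 at 19.8% and S100a4 at 15.9%. With no replicate values, the order of S100a6 and S100a11 in the KD, at 135 and 130 FPKM, is not established. S100a4 and S100a6 together made up 68.2% of the gain in summed FPKM, S100a11 18.7% and S100a10 10.5%.

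**Figure D2:**
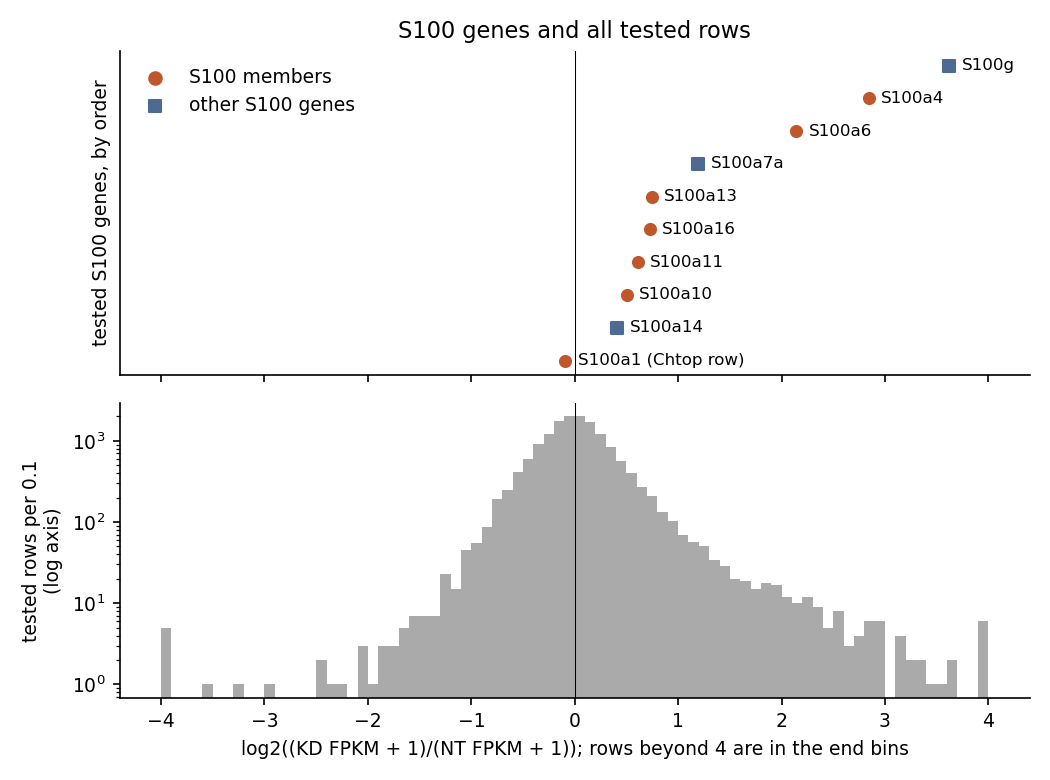
Log2 difference of each tested S100 gene (top, circles for the members and squares for other S100 genes) above the distribution of all 15477 tested rows (bottom, log count axis). S100a4 at 2.84 and S100a6 at 2.14 stand in the thin right tail, and the S100a1 row lies at -0.093.

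The 8 other S100 genes looked for were low in the control, where the highest was S100g at 0.414 FPKM and 5 were listed at 0. Of the 3 that were tested, none was called, where 0.963% of all tested rows were marked higher and 0.187% lower. With 3 rows, a count of 0 is near these shares and is no result about these genes. All 3 lay above 0 and 2 were at least 2-fold higher, against 50.9% and 2.72% of all tested rows. S100g, or calbindin D9k, a calcium carrier of gut, placenta and uterus, was at 16.4 FPKM in the KD, a log2 difference of 3.62 and thus larger than that of S100a4. The authors' deposited table gives it a p of 0.558 and a q of 0.999, and its row shares a locus of 133 kb on the X chromosome with Ctps2. S100a7a, a relative of the skin protein psoriasin, was at 0.269 and 1.90 FPKM (p of 0.0336, q of 0.466 in the authors' deposited table). S100a14, an epithelial member, was at 0.0969 and 0.459 FPKM (p of 0.044, q of 0.533 in the same deposited table by the authors). S100a8 and S100a9, the subunits of calprotectin in neutrophils, were listed at 0 in the control, and in the KD S100a8 was at 0.616 FPKM and S100a9 at 0. S100a5 was listed at 0 in both groups, while the glial gene S100b and S100z were listed at 0 in NT, against 0.0242 and 0.196 FPKM in KD cells.

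The genes around the family were described by position. Rows that hold an S100 gene were left out, and so was Chtop, whose row with S100a1 was at 64.0 and 59.9 FPKM. Of 12 other gene rows within 200 kb of a member, 6 were tested and none was called. Over all tested rows 0.963% were marked higher and 0.187% lower. Of these 6 rows the following is described. None of the 6 was at least 2-fold higher or lower, against 2.72% and 0.846% of all tested rows. With 6 rows, a count of 0 is near these shares and is no result about the neighbours. Their median log2 difference was -0.016, with a range from -0.16 to 0.31. Ilf2, a subunit of a double-stranded RNA-binding complex, was at 93.5 FPKM in NT and 93.3 FPKM in KD cells. The row of Ints3 and Slc27a3 was at 34.9 FPKM in both groups, and Gatad2b, a NuRD subunit, at 22.3 and 21.8 FPKM. The S100 genes of the first block, which spans 197 kb from S100a13 to S100a9, ranged from -0.093 to 2.84.

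**Figure D3:**
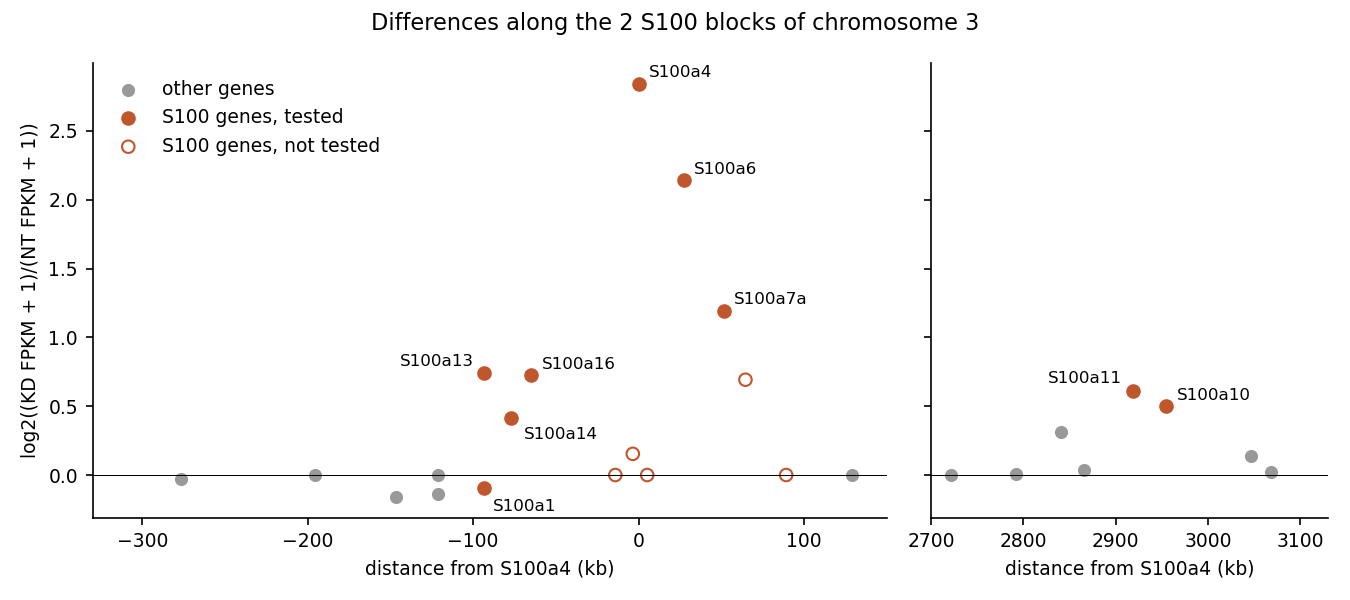
Log2 difference of the S100 genes (filled if tested, open if not) and of other genes within 200 kb, by the distance of the row's midpoint from that of S100a4, in kb. The other genes lie between -0.16 and 0.31, and S100a4, S100a6 and S100a7a stand above 1.

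Known binding partners of S100 proteins were described from a list of 21 genes, of which 15 were tested. By the authors' mark 2 rose, none fell and 13 did not pass, against 0.963% marked higher and 0.187% lower over all tested rows. The list median was 0.20, and 3 were at least 2-fold higher, against 2.72% of all tested rows. The 2 marked were the annexins bound by S100a11 and S100a10, Anxa1 (4.37 and 22.6 FPKM) and Anxa2 (18.9 and 75.1 FPKM). Both had q = 0.00815 by the authors' deposited table. The level of S100a10 was 3.19 times that of Anxa2 in the control and 1.14 times in the KD, both in FPKM and thus per length. For S100a11 and Anxa1 the ratio was 19.4 in the control and 5.76 in the KD. Anxa6 and Anxa11, other annexins bound by S100 proteins, were at 24.0 and 24.1 FPKM in the control and at 23.4 and 22.1 FPKM in the KD.

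The other 13 tested partners did not pass. Myh9, the myosin heavy chain bound by S100a4, was at 35.0 and 45.9 FPKM, and Cacybp, the partner of S100a6, at 70.6 and 101 FPKM. Plat, tissue plasminogen activator, which binds S100a10 at the cell surface, was at 0.865 and 4.72 FPKM and just missed the mark with q = 0.0505 by the authors' deposited table. The most abundant partners were Trp53, which encodes p53 (177 and 203 FPKM), the calcium pump gene Atp2a2 (135 and 133 FPKM) and the co-chaperone gene Stip1 (114 and 131 FPKM). None of these was called. Fgf1, whose protein S100a13 helps to export, was at 1.45 and 0.868 FPKM, and Ager, the receptor RAGE for released S100 proteins, at 0.284 and 0.257 FPKM and untested.

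EF-hand genes outside the family were described from a list of 30, of which 28 were tested. Of these 2 were at least 2-fold higher, against 2.72% of all tested rows, Myl9, a myosin light chain (0.925 and 4.62 FPKM), and Calb2, calretinin (1.22 and 4.14 FPKM). None was marked by the authors, which is near the shares of 0.963% and 0.187% over all tested rows. The median log2 difference of the 28 was 0.19, with 21 above 0 and 7 below, where 50.9% of all tested rows lay above 0. Calm2, a calmodulin gene, was the most abundant at 445 and 476 FPKM. The row of Myl6 and Myl6b was at 301 and 444 FPKM, and Capns1, a calpain subunit gene, at 163 and 193 FPKM.

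**Figure D4:**
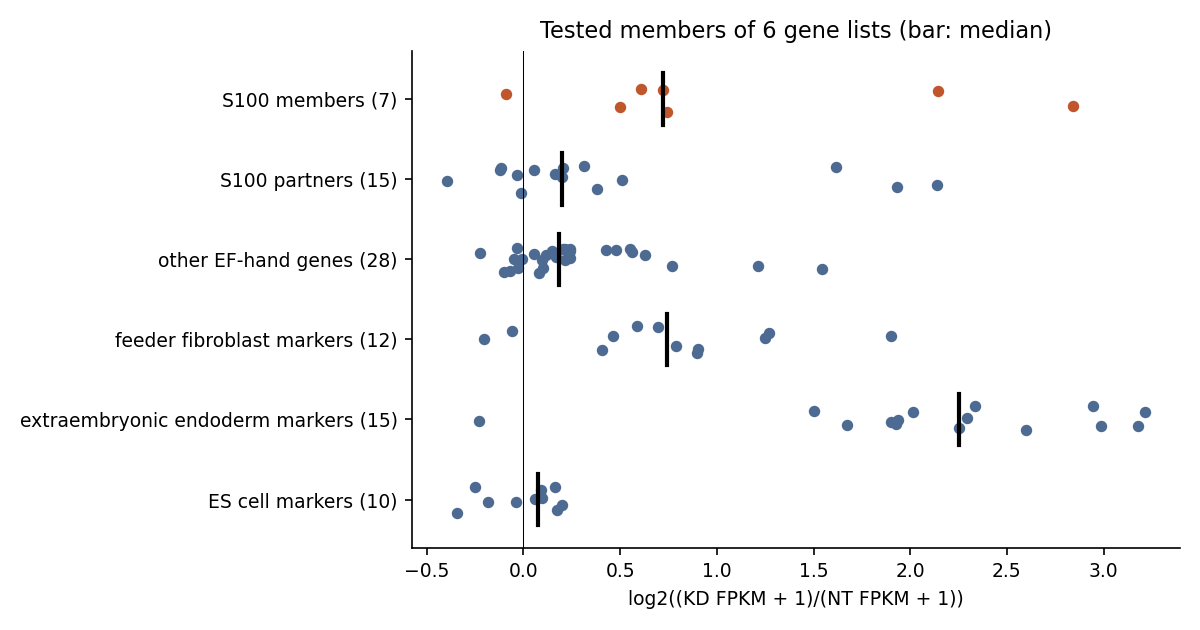
Log2 difference of the tested genes in 6 lists, 1 point per gene with a bar at the list median and the number tested in brackets. The S100 median is 0.72, that of partners 0.20, of other EF-hand genes 0.19, and of extraembryonic endoderm markers 2.25.

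Markers of other cell types were described as lists, and their part in these results was not tested. Of 15 tested extraembryonic endoderm (yolk sac lineage) markers, 12 were marked higher and none lower, against 0.963% and 0.187% of all tested rows. Their median was 2.25, and they summed to 129 FPKM in NT and 724 FPKM in KD cells. Hnf4a alone of the tested markers stood below 0, at 1.65 and 1.27 FPKM (log2 difference -0.23). The largest differences called were those of the basement membrane genes Col4a1 (10.9 and 109 FPKM), Col4a2 (6.06 and 63.0 FPKM) and Lamb1 (11.3 and 96.5 FPKM) and of the receptor gene Cubn (1.93 and 21.6 FPKM). The most abundant of the list were Sparc, a matrix protein (64.2 and 249 FPKM), Col4a1 and the laminin gene Lama1 (19.9 and 98.5 FPKM). The visceral endoderm carrier genes Afp and Ttr were listed at 0 in NT, against 0.0522 and 0.532 FPKM in KD cells.

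Of 12 tested feeder fibroblast markers 1 was marked higher and none lower, against 0.963% and 0.187% of all tested rows. It was Pdgfra (0.929 and 6.21 FPKM), which the endoderm list also holds, and 11 did not pass. Col1a2 just missed the mark with q = 0.0505 by the authors' deposited table, the same q as Plat. Col5a2 had q = 0.0616 and Col1a1 q = 0.104 in that table. The unadjusted Cuffdiff p was 0.05 or less, with the KD higher, for these and for Col5a1, Col6a1, Fbn1 and Twist1. Over all tested rows that share was 6.1%. Dcn, Thy1, Pdgfrb and Col6a2 had a larger p. The list median was 0.74 and the 18 markers summed to 15.6 FPKM in NT and 35.5 FPKM in KD cells. Thy1 was at 5.08 and 7.06 FPKM and Pdgfrb at 2.73 and 2.57 FPKM. Pdgfrb and Col6a2 (0.973 and 0.710 FPKM) were the 2 tested markers below 0. Of the 12, 10 lay above 0 and 3 were at least 2-fold higher, against 50.9% and 2.72% of all tested rows. Among matrix genes Col1a1 was at 0.920 and 3.63 FPKM, Col1a2 at 1.12 and 4.03 FPKM, Col5a1 at 1.02 and 2.49 FPKM and Fbn1 at 1.00 and 2.24 FPKM. Col5a2 was at 0.190 and 1.22 FPKM, and the transcription factor gene Twist1 at 1.13 and 2.98 FPKM. The untested Col3a1 was at 0.0628 and 0.244 FPKM, Postn at 0.0084 and 0.0452 FPKM, and Lum was listed at 0 in both groups. Blood and macrophage markers other than Cd68, whose row is shared with Eif4a1, summed to 3.59 and 3.52 FPKM, most of it Itgam (3.20 and 2.44 FPKM). Cd14 was at 0.224 and 0.444 FPKM, and Tyrobp was listed at 0 in both groups.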

How the data were processed

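RNA of 1 control library and 3 KD clones was sequenced. The submitters' processing notes name TopHat, Cufflinks and Cuffdiff with build mm9. The versions, the annotation and the scaling between libraries were not stated in the labels or the table. The authors deposited 1 FPKM per condition, named treated and control, with a p-value and q-value per gene from Cuffdiff, per the file headers. NT was matched to control, and the pooled KD clones to treated. The deposited q equalled a Benjamini-Hochberg adjustment over 15477 tested rows to within 5.2e-07, and the largest q among the 178 marked rows was 0.0478. Log2 differences were recomputed with a pseudocount of 1 FPKM, because 1801 cells of the deposited log2 column held a spreadsheet error. No own test was run, since each condition has 1 value. Depth per library was estimated only from low values.

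The members and lists were chosen with earlier results of these data known. Named genes were all S100 genes and, per list, up to 4 called genes with the largest change and the 3 most abundant. Cacybp, Myh9, Plat, Fgf1, Ager, Anxa6, Anxa11, Myl9, Calb2, Afp, Ttr, Col1a1, Col1a2, Col5a1, Col5a2, Fbn1, Twist1, Col3a1, Postn, Lum, Pgk1, B2m and Tyrobp were named after their values were seen. Hnf4a, Col6a1, Col6a2 and Dcn were also named after their values were seen. In 14 housekeeping genes none was called, where 0.963% of all tested rows were marked higher and 0.187% lower. With 14 genes, a count of 0 is near these shares. Their log2 differences ran from -0.57 (Pgk1) to 1.26 (B2m). At least 2-fold higher was 1 of 14, against 2.72% of all tested rows. The 3 most abundant, Eef1a1, Gapdh and Ppia, were at 0.043, -0.13 and 0.038. The calculations, in Python 3.11.15 with pandas 2.3.3, were tested on simulated data, where 200 of 200 changed genes among 15477 were recovered. That run checked the calculations only, and how well a real change is detected with 1 value per condition was not tested. Alternatives were other pseudocounts, scalings, row rules, level minimums and thresholds.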

Additional observations from a re-analysis of the deposited data

How the results depend on the processing

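S100a4 and S100a6 were the 2 members marked by the authors, and 2 was also the count at a q of 0.01 or less and at an unadjusted p of 0.05 or less. Over the pseudocounts and scalings tried, the log2 difference of S100a4 ran from 2.43 to 2.96 and that of S100a6 from 2.01 to 2.18. The other row rule could not change these values, since each member has only 1 row. With a pseudocount of 0.1 FPKM 3 of the 7 tested members were at least 2-fold higher, S100a16 (1.22) among them. The share of all tested rows at that pseudocount was not computed, so the count of 3 has no comparison. S100a3, untested and listed at 0 in NT, then stood at 1.09. It is in the median over all 8 members but not in the count of 3. The median over the members, 0.67, was 0.96 with a pseudocount of 0.1 FPKM, 0.50 with 5 FPKM, 0.66 after scaling to the median of tested rows or to housekeeping genes, and 0.68 over members at 5 FPKM or more. In settings chosen after seeing the data it was 0.72 without the row shared by Chtop and S100a1, and 0.73 without S100a1 and S100a3. Leaving out a KD clone was not possible with 1 pooled value. No paired analysis was possible because the control has 1 library and the clones have 1 pooled value.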

Other observations

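Fused-type S100 genes, which join an S100 domain to long repeats and build the skin barrier and hair, lie beside S100a11 and were near 0. Tchh, trichohyalin, was at 0.277 FPKM in NT and 0.582 FPKM in KD cells, with q = 0.777 by the authors' deposited table. Hrnr, Rptn and Tchhl1 were not tested and stood at 0.0256 FPKM or less in both groups. S100pbp, a nuclear protein that binds S100 proteins, was at 45.6 and 38.8 FPKM and was not called. S100a2, an S100 gene of epithelia outside the lists, was listed at 0 in both groups.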
